A study of Mus musculus with 6 samples.

Results

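The genes described here are 7 regulators and markers of endoderm and anterior mesendoderm, *Sox17*, *Foxa1*, *Foxa2*, *Hhex*, *Hnf4a*, *Cxcr4* and *Trh*. They were taken by symbol from the 23353 genes of the deposited RNA-seq table, and each has its own entry there. The choice was made with earlier results of these data known. The table compares embryoid bodies (EBs, floating aggregates of differentiating stem cells) made from the wildtype W9.5 line of mouse embryonic stem cells (mESCs) with EBs made from Evx1Δfs Clone 14, a W9.5 derivative in which CRISPR-Cas9 left small frameshift mutations in exon 2 of both *Evx1* alleles. Both lines were kept with LIF and then differentiated for 4 days in suspension, in medium with serum and without LIF, and 3 wildtype and 3 Evx1Δfs libraries were sequenced. The paired differentiations were begun together and each pair on its own day. The Evx1Δfs group is 1 clone, so an effect of the edit and a property of that clone cannot be told apart. The read count of *Evx1* (2311 ± 119 and 2294 ± 258 normalized counts in wildtype and Evx1Δfs EBs, SD, n = 3 each) does not check the genotype, because a frameshift need not alter the amount of transcript.

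During gastrulation, cells that leave the anterior primitive streak form definitive endoderm and the axial mesoderm in front of it, and nodal signals through EOMES and MIXL1 are known to start this programme. SOX17 and the forkhead factors FOXA1 and FOXA2 then set endoderm identity, while HHEX marks the anterior endoderm and HNF4A the visceral endoderm and later the liver. CXCR4, the receptor of the chemokine CXCL12, is widely used as a surface marker of definitive endoderm but is also made by mesoderm, and *Trh* encodes the precursor of thyrotropin-releasing hormone and is transcribed in the early streak and node. Several of these genes are also active outside the definitive endoderm: *Sox17* and *Hhex* in endothelium and extraembryonic endoderm, and *Foxa2* in the node, notochord and visceral endoderm.

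The sequences shown here are the CRISPR target in *Evx1* and the start regions of 3 members, at which binding was not measured. The guide site lies in exon 2 of *Evx1*, in the homeodomain region, at chr6:52265847-52265866 on the plus strand (NCBIM37, the assembly of mm9). It is given with its PAM in capitals. For 3 members with different outcomes (*Foxa2*, called higher, *Cxcr4*, called lower, and *Trh*, not called), the 250 bases before a RefSeq start site are shown on the gene's own strand. These were taken from the RefSeq GRCm38.p6 promoter table and placed on NCBIM37 by a single exact match, at chr2:147872706-147872955, chr1:130488877-130489126 and chr6:92194645-92194894, all on the minus strand. Capitals there mark TAAT or its reverse complement ATTA, the core bound by many homeodomain proteins.
Evx1 guide: ccagatgcgccgataccgcaCGG
Foxa2: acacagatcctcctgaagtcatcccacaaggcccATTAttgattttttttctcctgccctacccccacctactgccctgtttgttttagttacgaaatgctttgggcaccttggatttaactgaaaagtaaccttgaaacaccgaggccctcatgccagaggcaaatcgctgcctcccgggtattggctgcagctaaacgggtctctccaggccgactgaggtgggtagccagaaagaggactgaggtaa
Cxcr4: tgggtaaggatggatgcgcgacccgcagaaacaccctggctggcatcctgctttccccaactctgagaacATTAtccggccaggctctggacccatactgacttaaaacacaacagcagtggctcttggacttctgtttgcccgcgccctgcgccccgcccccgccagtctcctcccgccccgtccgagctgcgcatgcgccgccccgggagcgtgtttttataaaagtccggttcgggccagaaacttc
Trh: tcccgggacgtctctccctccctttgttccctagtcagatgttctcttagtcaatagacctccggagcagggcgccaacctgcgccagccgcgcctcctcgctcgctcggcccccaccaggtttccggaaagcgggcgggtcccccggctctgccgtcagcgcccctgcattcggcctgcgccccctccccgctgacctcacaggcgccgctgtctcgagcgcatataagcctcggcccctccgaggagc
The core occurred once in the *Foxa2* window, 216 bases before the start site, once in the *Cxcr4* window, 180 bases before it, and 0 times in the *Trh* window. Of 32536 distinct mouse windows of the same length, 54.8% held the core on either strand, so a match is common and says nothing of binding. *Foxa2* has 2 further RefSeq start sites, 1021 and 1505 bases downstream, and the window of the first had no core and that of the second held 2. Entries were found for 6 of the 7 members, all but *Sox17*. Among members that were not called, the core was also present in the window of *Foxa1* (1) and in both windows of *Hnf4a* (1 and 6), and it was not in that of *Hhex*.

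Reads assigned to genes, recovered from the normalized values, numbered 7597879 to 9914471 per library, and 1 read was worth 0.885 to 1.15 normalized counts. A total of 13136 genes passed the filter (at least 10 normalized counts in at least 3 libraries) and were tested together with limma on log2(normalized count + 1). Evx1Δfs EBs had 273 called higher and 387 called lower genes (adjusted p under 0.05), which is 5.02% of the genes tested (2.08% higher and 2.95% lower). Called higher genes had a median exon GC content of 43.8% and called lower genes 56.5%, against 50.3% in all genes tested. Among the members, *Sox17* (50.2%) lay at that median, *Foxa2* (56.7%) lay above it and was called higher, and *Cxcr4* (46.1%) lay below it and was called lower. With 3 libraries a group, an exact two-sided permutation test of a single gene cannot go below p = 0.1.

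The called members moved in both directions. *Sox17* and *Foxa2* were higher in Evx1Δfs EBs, by 1.88-fold and 2.12-fold, *Cxcr4* was 1.71-fold lower, *Hhex* and *Trh* did not pass the test, and *Foxa1* and *Hnf4a* were below the filter with at most 10 reads in any library. This makes 3 called members of the 5 tested, beside the 5.02% of all tested genes given above. The members were chosen with earlier results known, and the study names these 3 genes as changed in the same samples. It places *Sox17* and *Foxa2* with higher anterior genes and *Cxcr4* with lower genes tied to posterior mesoderm. The share is thus a description and not a test. edgeR and DESeq2 on the recovered reads called the same 3 members, beside 5.22% (2.35% higher, 2.87% lower) and 6.89% (2.44% higher, 4.45% lower) of their tested genes. The Evx1Δfs and wildtype values did not overlap for 4 of the 7 (*Sox17*, *Foxa2*, *Hhex* and *Hnf4a*), and such a separation was seen in 26.9% of all tested genes. When the replicate number was included as a replicate block, 1 member, *Cxcr4*, was still called, against 1.69% of all genes tested (0.579% higher and 1.11% lower). The number was taken to mark the day of differentiation, which is not stated. In whole EBs, a change in the number of cells of a type and a change in RNA per cell cannot be told apart.

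**Figure D1:**
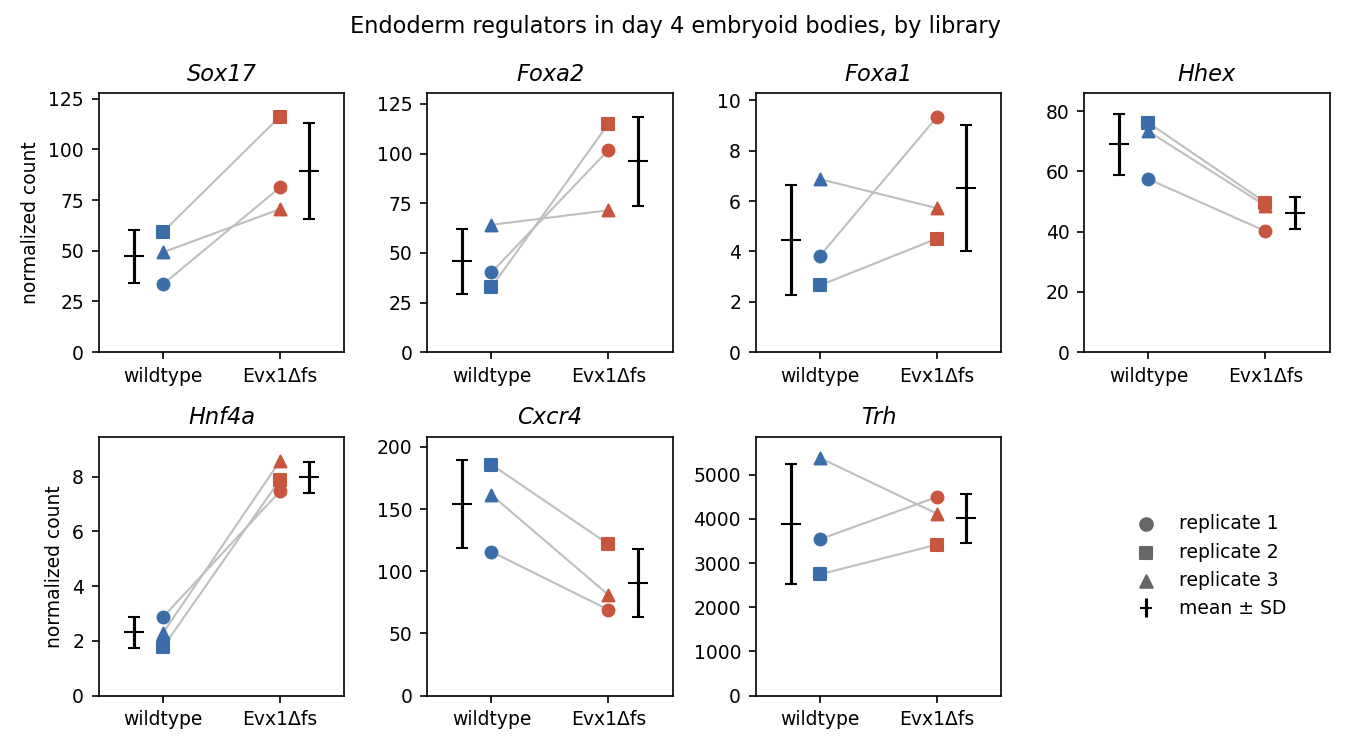
Normalized counts (vertical axes, each from 0) of the 7 members in wildtype (blue) and Evx1Δfs (red) EBs, with 1 point per library, marker shape for the replicate number, grey lines joining same-numbered libraries and bars for the mean ± SD (n = 3). The groups do not overlap for *Sox17*, *Foxa2*, *Hhex* and *Hnf4a*, all 3 lines fall for *Cxcr4*, and the lines cross for *Foxa1* and *Trh*.

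*Sox17* encodes an HMG-box transcription factor required for definitive endoderm. It lies at chr1:4481009-4486494 (minus strand, NCBIM37), and its annotated exons cover 3154 bases. Its normalized counts were 33.5, 59.3 and 49.2 in the wildtype libraries (replicates 1, 2 and 3) against 81.2, 116 and 70.5 in the Evx1Δfs libraries in the same order. All 3 Evx1Δfs libraries were above the highest wildtype library, replicate 3 by the least. The mean rose from 47.3 ± 13.0 to 89.3 ± 23.9 (SD, n = 3), on 145 and 264 reads in all. On the log2 scale *Sox17* rose by 0.91 ± 0.24 (SE; 95% interval 0.40 to 1.41; limma adjusted p = 0.0334). Within same-numbered pairs the log2 ratios were 1.25, 0.96 and 0.51, all in 1 direction, but the limma adjusted p reached 0.0564 once the block was included. Leaving out wildtype replicate 1, wildtype replicate 3, Evx1Δfs replicate 1 or Evx1Δfs replicate 2 also ended the call, with limma adjusted p of 0.122, 0.0524, 0.0801 and 0.134.

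*Foxa2*, the forkhead factor of the node, notochord and endoderm, lies at chr2:147868613-147872705 (minus strand), with 2370 bases of exon. It had 40.2, 32.7 and 64.1 normalized counts in the 3 wildtype libraries and 102, 115 and 71.5 in the 3 Evx1Δfs libraries. The groups were clearly apart in replicates 1 and 2, whereas in replicate 3 the highest wildtype library lay just below the lowest Evx1Δfs library. The wildtype mean was 45.7 ± 16.4 and the Evx1Δfs mean 96.1 ± 22.3 (SD, n = 3), on 135 and 286 reads. *Foxa2* thus rose by 1.09 ± 0.25 on the log2 scale (SE; 95% interval 0.57 to 1.60; limma adjusted p = 0.0159). The same-numbered pairs gave log2 ratios of 1.32, 1.78 and 0.15, and with the block its limma adjusted p was 0.0667. The call was also lost without Evx1Δfs replicate 1 or 2 (limma adjusted p = 0.0690 and 0.0721), and it was kept without any of the other 4 libraries.

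*Foxa1*, a forkhead factor that acts together with FOXA2 in gut endoderm, was close to the detection limit. It lies at chr12:58641618-58647108 (minus strand). The wildtype libraries held 4, 3 and 6 reads and the Evx1Δfs libraries 10, 4 and 6, or 3.83, 2.65 and 6.87 against 9.34, 4.51 and 5.72 normalized counts. The groups overlapped, with an exact permutation p of 0.4. The ratio of the summed reads was 1.56, with an exact 95% interval for counting error of 0.738 to 3.41, which holds both no difference and the 2.12-fold seen in *Foxa2*.

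*Hhex* encodes a homeodomain repressor of the anterior endoderm that is also made in early blood and endothelial precursors. It lies at chr19:37507377-37515218 (plus strand), with 3838 bases of exon. The wildtype libraries had 57.4, 76.1 and 73.3 normalized counts and the Evx1Δfs libraries 40.1, 49.6 and 48.6. All 3 Evx1Δfs values were below the lowest wildtype value, and the same-numbered log2 ratios were close to each other at -0.51, -0.61 and -0.58. The means were 68.9 ± 10.1 and 46.1 ± 5.20 (SD, n = 3), and the log2 fold change was -0.57 ± 0.22 (SE; 95% interval -1.02 to -0.11). The limma p was 0.0181 before and 0.129 after adjustment over all genes. *Hhex* was thus not called, and its adjusted p ran from 0.125 to 0.648 over 18 alternatives. The sign of its fold change was opposite to that of *Sox17* and *Foxa2*.

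*Hnf4a*, a nuclear receptor of visceral endoderm and liver, was the scarcest member per length. It lies at chr2:163332544-163398646 (plus strand), with 5019 bases of exon. It had 3, 2 and 2 reads in wildtype and 8, 7 and 9 reads in Evx1Δfs libraries, or 2.87, 1.77 and 2.29 against 7.47, 7.89 and 8.58 normalized counts. Each Evx1Δfs library was above each wildtype library, a pattern found in this direction in 3.94% of the 4419 genes that had any read but stayed under 10 normalized counts in every library. That set includes genes with too few reads to separate in this way, and among all tested genes the share was 12.2%. The ratio of the summed reads was 3.48, with an exact 95% interval for counting error of 1.45 to 9.55. When all genes with any read were fitted, the log2 fold change was 1.45 with a limma adjusted p of 0.0845, and edgeR on the recovered reads of those genes gave an adjusted p of 0.157. The wildtype libraries were at or under 3 reads, and the difference did not pass the test.

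*Cxcr4* was the member called lower. It lies at chr1:130484776-130488870 (minus strand), with 1808 bases of exon. Its normalized counts were 116, 186 and 161 in wildtype and 69.1, 122 and 81.0 in Evx1Δfs libraries. The groups overlapped, because Evx1Δfs replicate 2 was above wildtype replicate 1, yet within every same-numbered pair the Evx1Δfs library was lower, with log2 ratios of -0.74, -0.61 and -0.99. The mean was 154 ± 35.6 in wildtype and 90.6 ± 27.6 in Evx1Δfs EBs (SD, n = 3), on 472 and 267 reads. *Cxcr4* fell by 0.78 ± 0.21 on the log2 scale (SE; 95% interval -1.21 to -0.34; limma adjusted p = 0.0366). The call held with the replicate block in limma (adjusted p = 0.0406) and barely in edgeR (adjusted p = 0.04996). Those of *Sox17* and *Foxa2* did not hold, at limma adjusted p of 0.0564 and 0.0667. All lie near the threshold, and a difference between the genes was not tested. With GC and length trends removed as well as the block, *Cxcr4* and *Foxa2* were called (limma adjusted p = 0.0250 and 0.0431), while DESeq2 with the block and no independent filtering did not call *Cxcr4* (adjusted p = 0.110). Without wildtype replicate 2 or 3, or Evx1Δfs replicate 1 or 3, it was lost, with limma adjusted p of 0.108, 0.0930, 0.154 and 0.112. When the filter was dropped and all genes with any read were fitted, *Cxcr4* and *Sox17* also lost their call (limma adjusted p = 0.0553 and 0.0595) and *Foxa2* kept it (0.0288).

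*Trh* was by far the most abundant member, and ranked 129 of 21207 genes by mean normalized count per kb of exon. It lies at chr6:92192055-92194644 (minus strand), with 1384 bases of exon. The wildtype libraries had 3542, 2747 and 5382 normalized counts and the Evx1Δfs libraries 4496, 3419 and 4118. The Evx1Δfs values all lay within the range of the wildtype values, and the same-numbered log2 ratios were 0.34, 0.32 and -0.39. The means were 3890 ± 1352 and 4011 ± 546 (SD, n = 3), which differ by 0.09 ± 0.17 on the log2 scale (SE; limma adjusted p = 0.785). The 95% interval of the fold change was 0.838 to 1.35, and the wildtype libraries spread more widely than the Evx1Δfs libraries.

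Per kb of exon, which allows levels of different genes to be compared, the members spanned a wide range. In wildtype EBs the mean normalized count per kb was 2811 for *Trh*, 85.4 for *Cxcr4*, 19.3 for *Foxa2*, 18.0 for *Hhex*, 15.0 for *Sox17*, 1.40 for *Foxa1* and 0.460 for *Hnf4a*. The ranges of *Foxa2*, *Hhex* and *Sox17* overlapped in wildtype EBs. Within each wildtype library *Hhex* lay above *Sox17*, at 15.0, 19.8 and 19.1 against 10.6, 18.8 and 15.6. In Evx1Δfs EBs the means were 2898 for *Trh*, 50.1 for *Cxcr4*, 40.5 for *Foxa2*, 28.3 for *Sox17*, 12.0 for *Hhex*, 2.05 for *Foxa1* and 1.59 for *Hnf4a*. There the ranges of *Cxcr4* and *Foxa2* met, as did those of *Foxa2* and *Sox17*, while *Hhex* lay below *Sox17* in every library.

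**Figure D2:**
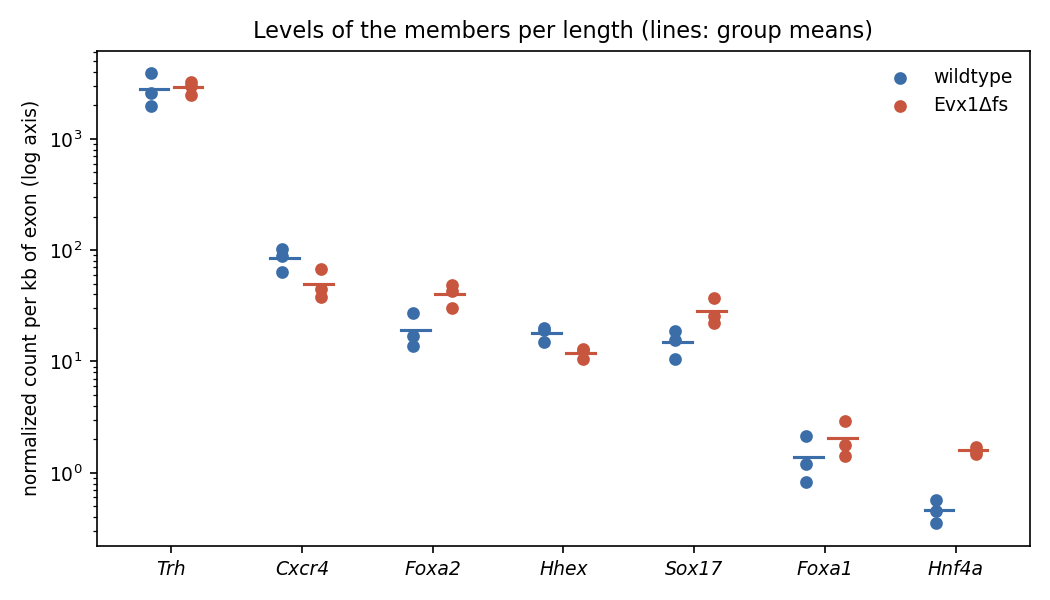
Normalized count per kb of annotated exon (vertical log axis) of the 7 members, with 1 point per library and a line at each group mean, wildtype in blue and Evx1Δfs in red. *Trh* lies far above the other members in both groups, and *Cxcr4* and *Foxa2* are apart in wildtype but meet in Evx1Δfs EBs.

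The opposed directions can also be read as ratios within a library, which do not depend on the scaling between libraries. The pairs were chosen after the values were seen, so the ratios are a description without a test. *Sox17* had 0.289, 0.319 and 0.305 normalized counts per count of *Cxcr4* in the wildtype libraries, and 1.18, 0.954 and 0.871 in the Evx1Δfs libraries. The wildtype ratios were close to equal, but they rest on 35, 67 and 43 reads of *Sox17*. A tie between the 2 genes was not tested. *Foxa2* per count of *Cxcr4* was less even, at 0.347, 0.176 and 0.397 in wildtype and 1.47, 0.944 and 0.882 in Evx1Δfs libraries. *Foxa2* per count of *Hhex* was 0.700, 0.430 and 0.875 in wildtype and 2.53, 2.32 and 1.47 in Evx1Δfs libraries. The 2 groups did not overlap in any of these ratios. Each sets a gene seen higher over a gene seen lower in these libraries, so the choice itself favours such a separation.

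By the rule that names the genes most like *Sox17* and *Foxa2* over the 6 libraries, out of 10630 genes with a mean of at least 50 normalized counts, *Srsf1* (Pearson's r of 0.999), *Crlf3* (0.990) and *2310044G17Rik* (0.989) followed *Sox17*. *Pigm* (0.987), *Gli1* (0.973) and *Stmn1* (0.969) followed *Foxa2*. These correlations rest on 6 points and are given as a description.

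Of 23 other endoderm and anterior mesendoderm genes, 19 were tested, 1 was called higher and 3 were called lower. Their median log2 fold change was -0.15, with 7 of the 19 above 0, beside a median of 0.00 and 50.1% above 0 in all genes tested. *Cer1*, a secreted antagonist of nodal, BMP and WNT made by anterior endoderm, had 24.9, 26.5 and 50.4 normalized counts in wildtype and 431, 406 and 294 in Evx1Δfs libraries. Its log2 fold change of 3.49 ± 0.23 (SE; limma adjusted p = 2.37e-09) was larger than that of any member, and it was called in every alternative. The study names *Cer1*, *Sox17* and *Foxa2* together from these same samples, so they are not independent of each other as evidence of direction. Beyond these samples, the study reports qPCR differences in *Cer1* for both of its frameshift clones. It also reports higher *Cer1* in a line lacking the *Evx1* promoter.

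The 3 genes of this list called lower act earlier or more broadly. *Mixl1*, a homeodomain factor of the streak, fell by 0.84 on the log2 scale (SE 0.14, limma adjusted p of 0.00143). *Eomes*, the T-box factor upstream of endoderm, fell by 0.50 (SE 0.12, limma adjusted p of 0.0194), and *Krt8*, a keratin of epithelia, fell by 0.41 (SE 0.12, limma adjusted p of 0.0447). *Mixl1* kept its call with the replicate block, while *Eomes* and *Krt8* then had limma adjusted p of 0.0586 and 0.0844.

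Further regulators of the axial and endodermal programme did not pass the test. *Gsc*, of the organizer, stood at -0.29 on the log2 scale (limma adjusted p = 0.413) and *Lhx1* at -0.25 (limma adjusted p of 0.393). *Gata4* and *Gata6*, of endoderm and cardiac mesoderm, stood at -0.38 each (limma adjusted p = 0.112 and 0.146), and *Foxa3*, the other forkhead gene of the family, at 0.18 (limma adjusted p of 0.726). Per kb of exon *Foxa3* had 20.2 normalized counts in wildtype EBs, near the 19.3 of *Foxa2*, and 22.7 in Evx1Δfs EBs, where *Foxa2* had 40.5. A difference between the changes of the 2 genes was not tested. Other uncalled genes of the list stood on both sides of 0. *Chrd* was at 0.60 and *Otx2* at 0.39 (limma adjusted p = 0.116 and 0.128). *Nog* was at -0.61 and *Sox7* at -0.89 (limma adjusted p = 0.0641 and 0.122). All genes named in this paragraph were chosen after their values were seen.

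**Figure D3:**
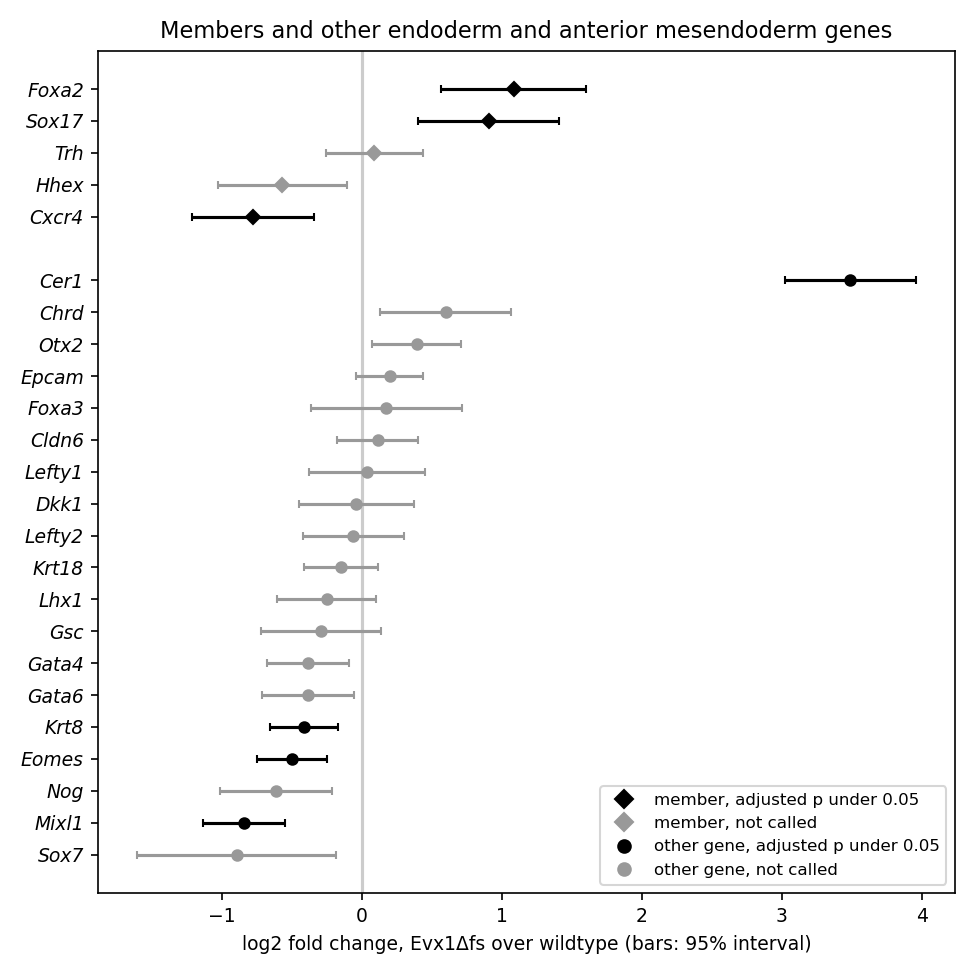
Log2 fold change, Evx1Δfs over wildtype (horizontal axis), with its 95% interval for the 5 tested members (diamonds) and the 19 tested genes of the wider list (circles), black where the limma adjusted p was under 0.05. *Sox17*, *Foxa2* and *Cer1* lie right of 0 and *Cxcr4*, *Krt8*, *Eomes* and *Mixl1* left of it, while most of the list is grey.

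The ligands and receptors tied to the members were examined next. *Cxcl12*, the ligand of CXCR4, had 166, 173 and 203 normalized counts in wildtype and 286, 177 and 197 in Evx1Δfs libraries, which overlapped (log2 fold change 0.26, limma adjusted p = 0.372). *Ackr3*, the other receptor of CXCL12 (listed as *Cxcr7*), had 51.7, 73.4 and 49.2 in wildtype and 35.5, 39.5 and 44.8 in Evx1Δfs libraries. Its groups did not overlap, but the log2 fold change of -0.51 had a limma adjusted p of 0.201. For *Trh*, the receptor gene *Trhr* and the degrading peptidase gene *Trhde* had 0 reads in all 6 libraries, where 3 reads, the limit that a count of 0 allows, equal 2.65 to 3.44 normalized counts. *Pcsk1*, a convertase that processes the hormone precursor, had 150 ± 10.3 and 191 ± 13.9 normalized counts (SD, n = 3; log2 fold change 0.35, limma adjusted p = 0.170).

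Markers of the other cell types in which the members are active were counted beside them. Of 16 visceral endoderm markers, 6 were tested and 1, *Cited1*, was called, as lower. The study lists *Cited1* among lower genes tied to posterior mesoderm, so its fall is not particular to visceral endoderm. Of the 16, 7 were at or near 0: *Afp*, *Ttr*, *Apoa1*, *Apoa4*, *Apom*, *Fgb* and *Slc2a2* had at most 4 reads in any library. Others were detected, with up to 26 reads in a library for *Cubn*, 29 for *Rbp4*, 22 for *Trf* and 65 for *Dab2*. The summed level of the list ran from 984 to 1235 normalized counts in wildtype and from 1107 to 1662 in Evx1Δfs libraries. Most of it came from *Lrp2*, an endocytic receptor (log2 fold change 0.54, limma adjusted p = 0.0523). *Lrp2* was not called, but 7 of its 19 alternatives called it higher. Of 12 markers of parietal and primitive endoderm, 11 were tested and 1, *Col4a2*, was called, as lower, and the summed level was 12444 to 15414 in wildtype and 9889 to 12569 in Evx1Δfs libraries.

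The haemangioblast and endothelial list overlaps in cell type with *Hhex*, *Sox17* and *Cxcr4*. Of its 15 genes, 14 were tested, 4 were called lower and 1 higher, with a median log2 fold change of -0.57. *Kdr*, *Etv2*, *Lmo2* and *Gata2* fell by 0.91, 1.10, 0.64 and 0.96 on the log2 scale, while *Flt1*, a VEGF receptor, rose by 0.75. *Cdh5*, *Tie1*, *Tek* and *Pecam1*, of mature endothelium, were not called, but their values differed. *Cdh5* stood at -0.94 and *Tie1* at -0.52 (limma adjusted p = 0.0562 and 0.332). *Tek* stood at -0.0082 and *Pecam1* at 0.16 (limma adjusted p = 0.990 and 0.656). The summed level was 3637 to 4853 normalized counts in wildtype and 2340 to 2669 in Evx1Δfs libraries, so the groups did not overlap. All 7 primitive streak markers were tested and 5 of them, *T*, *Mixl1*, *Eomes*, *Mesp1* and *Wnt3*, were called lower, with summed levels of 14290 to 17126 in wildtype and 9918 to 12483 in Evx1Δfs libraries. *Cxcr4* was thus lower beside lower streak and haemangioblast markers, and the part of these cells in its change was not tested.

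Components of the nodal pathway, which drives endoderm formation, were also counted. Of 14 genes, 13 were tested, 1 was called higher and 1 lower, beside 5.02% called in all genes tested. Their median log2 fold change was -0.05. *Cfc1*, a nodal co-receptor, rose by 0.76 on the log2 scale, with 79.4, 107 and 84.7 normalized counts in wildtype and 146, 161 and 150 in Evx1Δfs libraries (limma adjusted p = 0.0163). *Foxh1*, the transcription factor that acts with SMAD2 at nodal targets, fell by 0.62 on the log2 scale (limma adjusted p of 0.00551). *Nodal* itself stood at -0.18 on the log2 scale (limma adjusted p = 0.511). Of the pluripotency and epiblast markers, all 16 were tested, *Tfcp2l1* and *Fgf5* were called higher and *Tbx3* lower, and 14 of the 16 were above 0 with a median of 0.37. In the neurectoderm list, 4 of 11 genes were tested, 2 of them were above 0, and *Sox3* was called lower. That call was lost in 10 of 18 alternatives. *Pax6* of the same list stood at 1.31 on 23 and 60 reads, with groups that did not overlap. It was not called (limma adjusted p = 0.0803). The summed level of the pluripotency and epiblast list ran from 17028 to 24042 in wildtype and from 20187 to 24823 in Evx1Δfs libraries, and its part in the changes of *Sox17* and *Foxa2* was not tested.

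How firmly the 3 calls stand was read from 18 alternatives to the reported fit, which include limma, edgeR and DESeq2 fits. The sign of the fold change was kept in all of them for *Sox17*, *Foxa2* and *Cxcr4*. The adjusted p ran from 0.00319 to 0.174 for *Sox17*, from 0.000154 to 0.123 for *Foxa2* and from 0.00207 to 0.154 for *Cxcr4*. The call was lost in 9, 5 and 6 of the 18 alternatives for the 3 genes in that order.

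**Figure D4:**
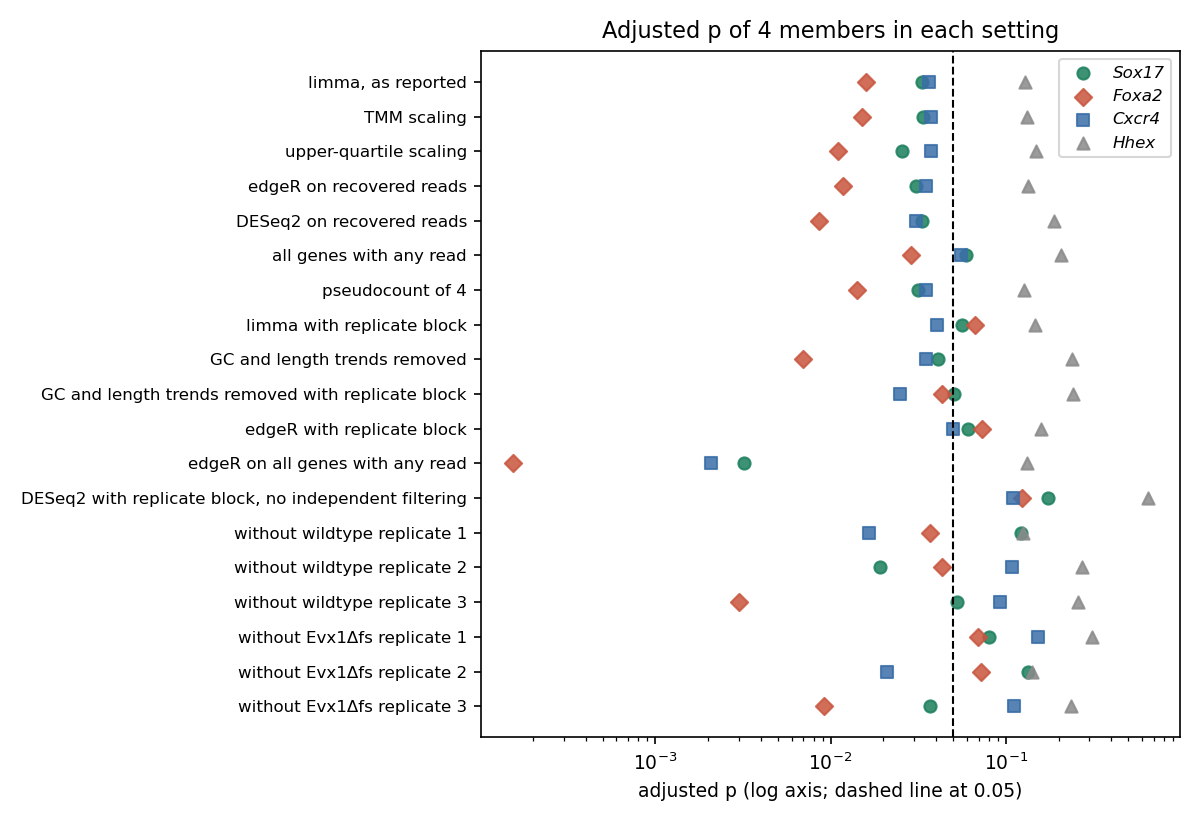
Adjusted p (horizontal log axis, dashed line at 0.05) of *Sox17*, *Foxa2*, *Cxcr4* and *Hhex* in the reported limma fit and in 18 alternatives (vertical axis). *Hhex* is right of the line throughout, and the other 3 genes lie on either side of it depending on the setting and on the library left out.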

How the data were processed

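RNA was measured in 3 wildtype and 3 Evx1Δfs libraries of day 4 EBs. According to the methods, mRNA was selected and sequenced on an Ion Proton, and the authors aligned the reads to mm9 (TopHat2, then TMAP), counted them by gene (HTSeq, standard settings) and tested them with DESeq2. Versions and the gene annotation are not given in the sources used here. The deposited signal is the read count of a gene divided by 1 factor per library. Whole reads were recovered from the steps of the values (100% of values within 0.001 of a whole read). Every column had a label.

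Tests were made with limma (3.58.1, mean-variance trend) in R 4.3.3 on log2(normalized count + 1), a scale that understates the change of low genes, over genes with at least 10 normalized counts in at least 3 libraries, with Benjamini-Hochberg adjustment over all 13136 of them. The study's test, DESeq2 (1.42.0), was run on recovered reads as an alternative, as was the quasi-likelihood test of edgeR (4.0.16). Further alternatives were other scalings, a pseudocount of 4, no filter, removal of per-library GC and length trends (splines of 5 degrees of freedom), a replicate block, and each library left out. An edgeR fit with the block, an edgeR fit on all genes with reads and a DESeq2 fit without independent filtering were added after seeing the data.

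Same-numbered libraries were taken as pairs, because the submitters' descriptions say that compared samples were begun on 1 day and the replicates on separate days. That a number marks a day is not stated. Their deviations from the group means correlated at 0.111, 0.00933 and -0.101 across 13136 genes. The p-values measure the spread between differentiations of 1 clone and its parent. Intervals and limits from reads cover counting error only. Gene positions, lengths and GC content came from GENCODE vM1 on NCBIM37 (21207 symbols, 90.8%, matched). None of the members shares exon bases with another annotated gene. Limma (plain, with the block, or with trends removed) and DESeq2 and edgeR without the block were also run on simulated counts. Those counts held no GC trend, no day effect and no changed genes of low count, so the runs say nothing of such cases.

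The members and all gene lists were chosen with earlier results of these data known. Named were the members, *Evx1* and the partners of CXCR4 and TRH. From each list every called gene was named, or the 3 with the highest and the 3 with the lowest fold change where over 6 were called, and the 2 most abundant where under 2 were called. The 3 genes most correlated with *Sox17* and with *Foxa2* completed the rule. Other genes were chosen after their values were seen. A gene of the lists is not reported here.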

Additional observations from a re-analysis of the deposited data

How the results depend on the processing

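The count of called members was 3 with limma, and also with edgeR, DESeq2, TMM or upper-quartile scaling, a pseudocount of 4 and GC and length trends removed. It was 2 with those trends removed and the replicate block (*Foxa2* and *Cxcr4*), 1 with the replicate block in limma (*Cxcr4*) and in edgeR (*Cxcr4*), 1 when limma was fitted to every gene with a read (*Foxa2*), and 0 in DESeq2 with the replicate block and no independent filtering. DESeq2 with the replicate block and its own filtering gave no adjusted p to any member but *Trh*. Leaving out 1 library gave 0 (without Evx1Δfs replicate 1) to 2. Of 95 values of the members under alternatives, 74 kept their direction and side of the threshold, 20 lost the call and 1 turned: *Trh* had a log2 fold change of -0.13 without wildtype replicate 2, and up to 0.35 with other libraries left out.

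Over the whole table, 660 genes were called. With the replicate block this was 222 in limma, 284 in DESeq2, 193 in edgeR and 178 in DESeq2 with no independent filtering. It was 273 with GC and length trends removed, 160 with the block as well, 1155 with edgeR on all genes with any read, and 219 to 645 with 1 library left out, lowest without Evx1Δfs replicate 3. With upper-quartile scaling 53.2% of calls were higher, against 41.4%. The wider endoderm list had 4 calls, 2 with the replicate block in limma, in edgeR, or in limma with trends removed as well, 7 with edgeR on all genes with any read, and 2 to 4 with 1 library left out. Of 638 values of 34 other named genes, 547 were unchanged in direction and call, 68 lost it, 9 gained it and 14 turned, all from uncalled values. *Evx1* turned to 0.0126 (upper-quartile scaling), 0.000334 (edgeR) and 0.18 (trends removed, with and without the block), and ran from -0.0858 to 0.0755 with 1 library left out. *Sparc* ran from -0.24 to 0.0501 with 1 library left out, and *Srsf1* turned to -0.12 with trends removed, with and without the block. *Nes* turned to -0.0071 (DESeq2) and -0.0023 (edgeR on all genes with any read), and ran from -0.12 to 0.0787 with 1 library left out. The cause of these changes was not tested.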

Other observations

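*Spink3*, a secreted trypsin inhibitor expressed in visceral and gut endoderm, was below the filter with 0, 0.885 and 2.29 normalized counts in wildtype and 5.60, 9.02 and 4.76 in Evx1Δfs libraries. It was chosen after its values were seen. Its groups did not overlap, and its wildtype libraries held at most 2 reads.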
